A study of Homo sapiens with 8 samples.

Results

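The 10 KLF genes described here, KLF2, KLF3, KLF4, KLF5, KLF6, KLF7, KLF9, KLF10, KLF11 and KLF13, encode Krüppel-like factors, a family of zinc finger transcription factors. Open chromatin at these genes was taken as every peak overlapping the RefSeq gene body or the 20 kb on each side of it. This gave 66 peaks of the 129536 in the table, from 3 at KLF2 to 11 each at KLF7 and KLF9, and no peak fell in more than 1 of the windows. Accessibility was measured by ATAC-seq, in which a transposase cuts and tags open DNA of isolated nuclei, in HEK293 cells, an embryonic kidney line, of the genotype eGFP-YAP. All 8 libraries carry this genotype. The vehicle group has 4 libraries, and the sorbitol group has 4, treated for 1 h with 0.2 M of this sugar alcohol, which makes the medium hyperosmotic. The names of the vehicle libraries give 0 h, so time and treatment cannot be told apart. The series description adds 1 h of serum starvation before sorbitol, and whether the vehicle libraries were starved alike is not spelled out in the labels. The labels do not say whether the libraries of a group came from separate cultures, so p-values measure only the spread between these libraries, which may be technical.

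Krüppel-like factors bind CACCC elements and GC-rich sites through zinc fingers at their C-terminal end, and differ in the cofactors that their N-terminal parts recruit. KLF2, KLF4, KLF5, KLF6 and KLF7 act largely as activators, KLF3 represses through CtBP corepressors, and KLF9, KLF10, KLF11 and KLF13 bind the SIN3A corepressor. Several of the genes, among them KLF2, KLF4, KLF6 and KLF10, are known as genes that respond quickly to growth factors, shear or injury.

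Most peaks at the KLF genes differed little between vehicle and sorbitol. Of the 66 peaks, 14 passed an edgeR quasi-likelihood test at an adjusted p under 0.05 and are termed called here, 9 higher and 5 lower after sorbitol. All 66 passed the filter on low counts. Across all 129487 tested peaks, 29.1% were called, 16% higher and 13.1% lower, against 21.2% of the KLF peaks. A single KLF peak, weak and inside KLF7, was called and changed at least 2-fold, against 6.15% of all tested peaks. The median log2 fold change, sorbitol minus vehicle, was 0.05 at the KLF peaks and 0.01 over all peaks. It lay between -0.5 and 0.5 at 57 of the 66 KLF peaks (86.4%) and at 71.8% of all tested peaks.

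The split between higher and lower calls, and their number, depended on how libraries were scaled. With library totals alone it was 17 higher and 2 lower, where 28.8% of KLF peaks and 30.0% of all peaks were called. With a loess offset it was 14 and 3 (25.8% and 27.1%), and with factors from peaks at gene starts 22 and 0 (33.3% of both). With factors from contig peaks it was 2 and 0 (3.03% and 10.6%), although fold changes hardly moved. The KLF median stayed at 0.05, and the KLF2 start peak had -0.38, against -0.37 in the fit above. The reason for the fewer calls was not tested. Over all peaks the calls were 26162 higher and 12650 lower with library totals, 19386 and 15668 with the loess offset, 35147 and 8005 with gene-start factors and 9635 and 4092 with contig factors. Under gene-start factors the median over all peaks moved up from 0.01 to 0.20. The lower KLF calls fell to 2 without vehicle 3 and to 3 without vehicle 2, and the higher KLF calls fell to 5 without sorbitol 1. Over all tested peaks in the same fits, lower calls fell from 17016 to 14712 and 13876, and higher calls from 20701 to 17094. None of the 14 called peaks changed direction under any alternative.

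**Figure D1:**
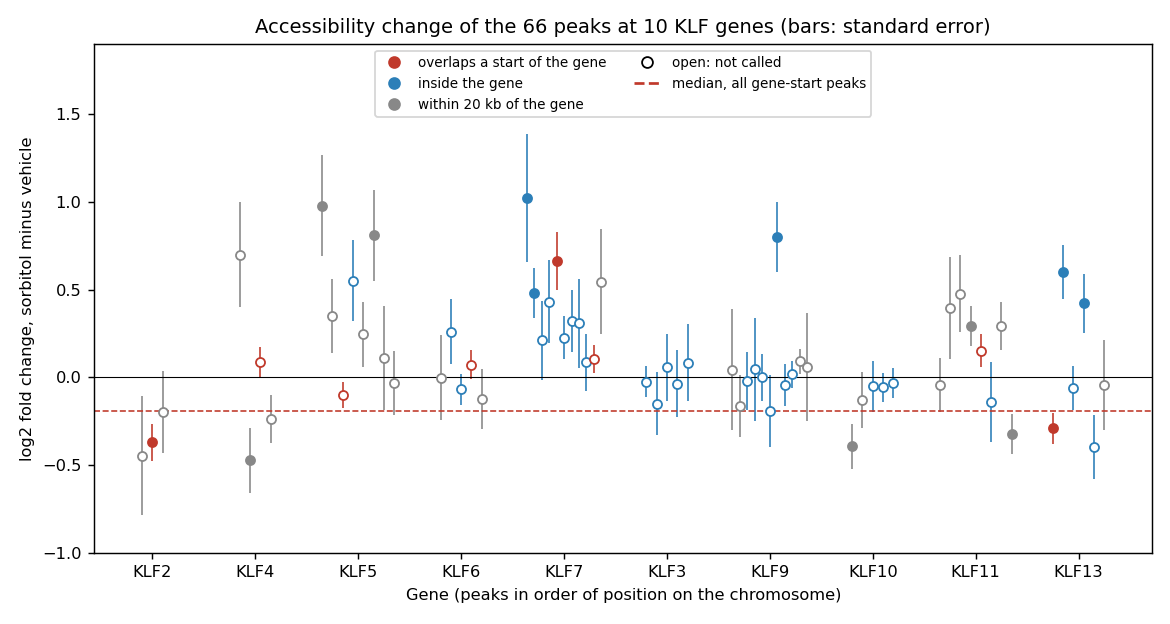
Log2 fold change with standard error (vertical axis) of each of the 66 peaks, grouped by gene (horizontal axis) and coloured by position. Filled points are called, open points are not, and the dashed line is the median of all gene-start peaks, -0.19. Peaks at KLF7 all lie above 0, and peaks at KLF3, KLF6 and KLF10 lie mostly near 0.

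Levels are given as CPM, counts divided by the library's total in peaks after TMM scaling (a trimmed mean that sets libraries on a common scale) and expressed per M (the usual scale of CPM). Library totals in peaks ranged from 14757015 to 19831471 counts in the vehicle group and from 11522266 to 14355727 in the sorbitol group. The KLF peaks held from 5 to 2717 counts in a library. At 477 peaks on unplaced or unlocalized contigs, each averaging 50 counts or more, 1 library of each group went against the other 3. Here CPM used library totals without TMM scaling. The median log2 deviation from the mean of all libraries was 0.35 in vehicle 4, against -0.30 to -0.07 in the rest of its group. In sorbitol 4 it was -0.31, against 0.08 to 0.29 in the rest of its group. Without this pair, 7 KLF peaks were called higher and 5 lower (18.2% called). Of all peaks tested without it, 29.1% were called, 19778 higher and 17814 lower. As a check of the labelled line, peaks were present at starts of PAX2 (33.2 CPM, mean of 8 libraries), CDH2 (124.4) and VIM (95.4) and at an end of KRT18 (22.9), but none was listed at the start of KRT8. None was listed at the start or ends of PTPRC, CD3E, ALB or HBB. APOA1, a gene of liver cells, had a peak at a gene end (19.0).

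Promoter sequences show what kind of DNA lay under the peaks that the results turn on. The 300 bases around 5 annotated starts, from 250 before the start, are printed 5′ to 3′ on the gene's own strand, from RefSeq on GRCh38.p14. Capitals mark each CACCC (the core that Krüppel-like factors bind) and each GGGCGG (the GC box), on either strand. The KLF2 window is chr19:16324576-16324875 on the plus strand, KLF13 is chr15:31326585-31326884 on the plus strand, and the second KLF5 start is chr13:73058755-73059054 on the plus strand. For KLF7, on the minus strand, the upstream window is chr2:207166807-207167106 and the internal window is chr2:207134088-207134387.
KLF2: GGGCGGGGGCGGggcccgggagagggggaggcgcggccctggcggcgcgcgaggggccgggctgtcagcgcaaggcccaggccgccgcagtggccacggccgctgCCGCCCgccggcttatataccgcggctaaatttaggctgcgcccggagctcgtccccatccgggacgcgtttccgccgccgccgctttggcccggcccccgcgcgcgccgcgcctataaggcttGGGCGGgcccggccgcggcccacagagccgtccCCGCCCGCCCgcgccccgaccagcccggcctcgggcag
KLF13: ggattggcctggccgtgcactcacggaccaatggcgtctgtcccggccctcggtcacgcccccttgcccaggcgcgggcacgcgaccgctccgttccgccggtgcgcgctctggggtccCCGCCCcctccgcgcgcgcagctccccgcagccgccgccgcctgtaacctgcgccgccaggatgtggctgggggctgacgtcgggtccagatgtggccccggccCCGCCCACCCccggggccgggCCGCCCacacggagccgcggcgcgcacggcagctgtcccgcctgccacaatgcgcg
KLF5: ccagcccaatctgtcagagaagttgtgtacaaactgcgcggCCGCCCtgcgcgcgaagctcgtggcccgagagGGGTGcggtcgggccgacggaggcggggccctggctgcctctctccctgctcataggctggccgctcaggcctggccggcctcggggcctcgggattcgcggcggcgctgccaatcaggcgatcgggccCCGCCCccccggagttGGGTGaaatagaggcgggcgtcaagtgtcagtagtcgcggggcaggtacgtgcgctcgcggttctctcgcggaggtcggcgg
KLF7 upstream: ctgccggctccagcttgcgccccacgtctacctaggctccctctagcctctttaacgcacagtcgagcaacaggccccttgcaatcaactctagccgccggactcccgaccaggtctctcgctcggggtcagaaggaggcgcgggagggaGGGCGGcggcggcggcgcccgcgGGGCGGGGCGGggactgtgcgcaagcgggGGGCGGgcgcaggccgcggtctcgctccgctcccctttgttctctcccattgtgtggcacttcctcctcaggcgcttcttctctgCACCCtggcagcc
KLF7 internal: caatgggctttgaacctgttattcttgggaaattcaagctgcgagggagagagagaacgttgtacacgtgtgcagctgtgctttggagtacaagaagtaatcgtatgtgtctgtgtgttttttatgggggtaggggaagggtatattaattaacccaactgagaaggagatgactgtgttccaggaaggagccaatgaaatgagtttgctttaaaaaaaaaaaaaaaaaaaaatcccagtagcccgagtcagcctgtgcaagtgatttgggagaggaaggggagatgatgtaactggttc
The first 2 windows lay under start peaks that fell, the internal KLF7 window lay partly under a start peak that rose, and the remaining 2 lay under strong start peaks that were not called. KLF2 had 80.7% G and C bases and 6 GC boxes, and KLF13 had 78.3% and 3. The second KLF5 start had 71.3% and 2, and the upstream KLF7 start 70% and 4. The internal KLF7 start had 43.0% and no match to either motif. Of the 8 windows not printed, 3 had a lower share of G and C, namely KLF9 (32.7%, no match to either motif), the first KLF5 start (40.7%) and the most upstream KLF7 start (42.7%), and none of these 3 overlapped a peak. The others lay under start peaks that were not called. The KLF11 windows had 77.3% and 75.3% with 2 and 7 GC boxes, and their peak had a log2 fold change of 0.15. KLF6 had 70.7% and 2, KLF4 had 69% and 4, and the remaining KLF7 window had 56.7% and 0. A link of sequence with the direction of change was not tested.

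The promoter table held 13 windows for 8 of the 10 genes, of which 10 overlapped a peak of the same gene. KLF3 and KLF10 had no entry. GGGCGG was found in 8 of the 13 windows and in 45% of 35116 windows of the same length over all genes. CACCC was found in 7 of the 13 and in 59.9% of all. TGACTCA (AP-1) was found in none, against 4.95% of all windows. TGACGTCA (CRE) was found in 1, at KLF11, against 1.85%, and there it shares bases with a CACCC match. GGAATG (the TEAD core) was in 1 window, at KLF7, against 14%. TGGAAA (the core of the tonicity element) was in 1, at KLF11, against 20.7%. The same letters were searched on both strands, and a match describes the sequence and is not evidence of binding.

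The strongest peak lay at a listed start or gene end at every locus except KLF9 and KLF10, and most start peaks were not called. Of 8 peaks overlapping an annotated start of their KLF gene, 1 was higher and 2 were lower. Among all 12240 tested peaks at a gene start, 48.9% were called, 6.77% higher and 42.1% lower. The median log2 fold change was -0.19 over those peaks. Those peaks overlap a start of any gene, and by that rule 11 KLF-locus peaks count, of which 3 (27.3%) were called, with a median of 0.02. Of 12 KLF peaks with a mean of at least 20 CPM, 1 was called, and it was lower. Over all tested peaks of that strength, 52.5% were called, 8.22% higher and 44.3% lower. The 12 values ranged from -0.29 to 0.15 on the log2 scale, against a median of -0.18 over all peaks of that strength. With so few KLF peaks, these shares are a description, and their difference from the background was not tested.

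**Figure D2:**
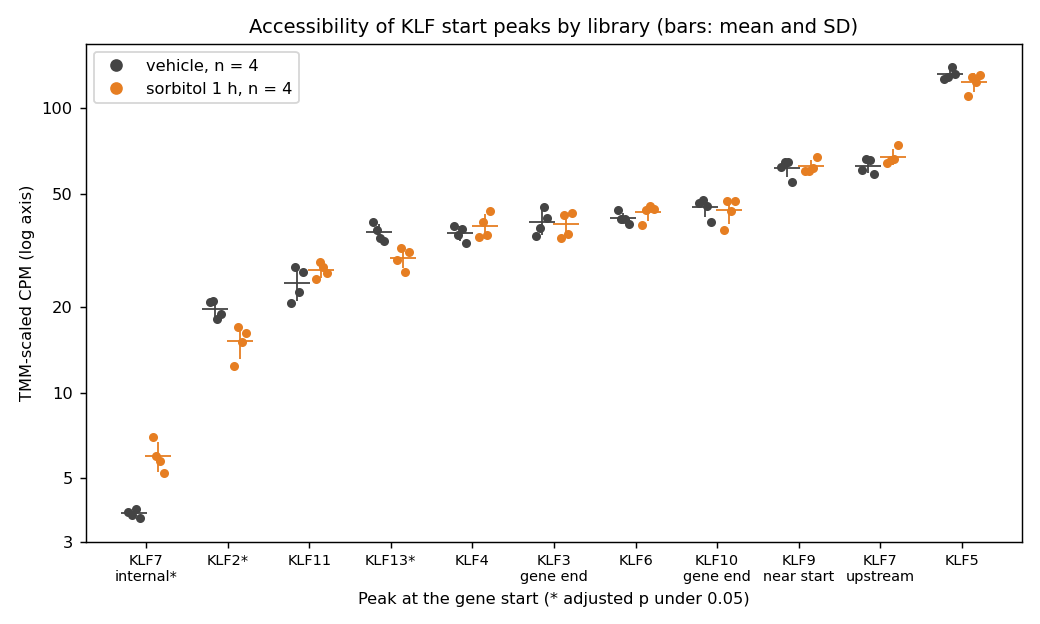
TMM-scaled CPM (log axis) of the peak at or nearest to each KLF gene start (horizontal axis), ordered by mean level, in 4 vehicle and 4 sorbitol libraries, with mean and SD. Asterisks mark called peaks. The internal KLF7 peak is the weakest and is higher in every sorbitol library, whereas KLF2 and KLF13 are lower in every sorbitol library.

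KLF2, a factor known for endothelial responses to blood flow and for T cell quiescence, lost accessibility at its start. The peak, chr19 16324275 to 16325508, overlaps the start of KLF2 and also that of KLF2-DT, a divergent transcript. Vehicle libraries 1 to 4 had 20.8, 21.0, 18.2 and 19.0 CPM, the scale of all levels below. Sorbitol libraries 1 to 4 had 12.4, 17.1, 15.1 and 16.3. Every sorbitol library lay below every vehicle library. The means were 19.7 ± 1.37 and 15.2 ± 2.05 (SD, n = 4). The log2 fold change was -0.37 (standard error 0.10, edgeR adjusted p = 0.00534). With gene-start factors it was -0.18 (edgeR adjusted p = 0.145) and with contig factors -0.38 (0.341), and adjusted p ranged from 0.00156 to 0.341 over 21 alternatives. The other KLF2 peaks were weak, and their values were -0.45 at 19859 bp before the gene and -0.20 at 1850 bp after it, neither called.

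KLF13, which activates the chemokine gene CCL5 in T cells and binds SIN3A, changed in both directions within its own locus. Its start peak, chr15 31325567 to 31327285, held 39.8, 37.5, 34.98 and 34.2 CPM in vehicle and 29.3, 32.3, 26.6 and 31.2 in sorbitol libraries. The groups did not overlap. The log2 fold change was -0.29 with standard error 0.09 (edgeR adjusted p = 0.00847), and it was -0.10 (edgeR adjusted p = 0.318) with gene-start factors, -0.12 (0.221) with the loess offset and -0.30 (0.465) with contig factors. Over 21 alternatives its adjusted p ranged from 0.00122 to 0.465. A weaker peak just inside the gene, chr15 31327730 to 31328413, went the other way. It held 4.76, 5.72, 4.18 and 4.93 in vehicle and 7.25, 6.14, 6.86 and 9.28 in sorbitol libraries. Every sorbitol library was above every vehicle library, and the log2 fold change was 0.60 (standard error 0.16, edgeR adjusted p = 0.00252). Over 21 alternatives its adjusted p ranged from 0.000193 to 0.104, the latter with contig factors.

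The ratio of these neighbouring KLF13 peaks within each library does not depend on a factor common to the library. It does depend on offsets that vary with the level of a peak, such as the loess offset, under which the peaks' log2 fold changes were -0.12 and 0.63. The log2 ratio of start peak over inside peak was 2.91 ± 0.183 in vehicle and 2.03 ± 0.270 in sorbitol libraries (SD, n = 4), a difference of -0.88. It lay between 2.71 and 3.07 in vehicle and between 1.75 and 2.40 in sorbitol libraries. Both ratios were chosen after the values had been seen. The start peak was lower and the inside peak higher in every sorbitol library, so the ratios had to be apart. An exact two-sided permutation test could therefore only give p = 0.0286, the smallest that 4 against 4 libraries allow. It was 0.0286 after adjustment over the 2 ratios computed, and adds no support beyond the peaks' own values. The third called KLF13 peak, far inside the gene at chr15 31397217 to 31397687, rose from 4.06 ± 0.380 to 5.42 ± 0.506 (SD, n = 4), a log2 fold change of 0.42 (edgeR adjusted p = 0.0489). That call was lost under 14 of 21 alternatives, among them DESeq2 size factors (edgeR adjusted p = 0.0589), summed libraries (0.0545), the replicate block (0.0647) and 6 of 8 fits without 1 library (up to 0.130), with adjusted p from 0.00429 to 0.342. It also lies in the uncharacterised gene LOC105370939. The other 3 KLF13 peaks were not called, with values from -0.40 to -0.04.

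KLF7, known for its part in axon growth, had 3 of 11 peaks called, all higher. Among all tested peaks 29.1% were called and 16% called higher. The count is as high as at KLF13 and higher than at the other loci, but KLF7 and KLF9 also had the most peaks. All 11 KLF7 peaks had a positive log2 fold change, against 66127 of all 129487 tested peaks. The KLF7 median was 0.32, against 0.01 over all peaks. The strong upstream start peak, chr2 207165614 to 207167156, covers 2 of the 4 listed starts and was not called. It held 60.7, 66.4, 65.6 and 58.9 CPM in vehicle and 64.5, 65.8, 66.1 and 74.1 in sorbitol libraries, and the groups overlapped. Its log2 fold change was 0.10 with standard error 0.08 (edgeR adjusted p = 0.338), which became 0.19 (0.0391) with library totals alone, 0.18 (0.0271) over peaks averaging 50 counts or more, 0.31 (0.000279) with the loess offset and 0.30 (0.000379) with gene-start factors. Over 21 alternatives its adjusted p ranged from 0.000279 to 0.914.

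An internal KLF7 start far downstream of it gained accessibility. This peak, chr2 207133840 to 207134345, lies over the low-GC promoter window printed above. Vehicle libraries held 3.81, 3.73, 3.92 and 3.63 CPM, a narrow range, and sorbitol libraries held 7.00, 5.99, 5.77 and 5.22. Every sorbitol library was above every vehicle library. The log2 fold change was 0.66 with standard error 0.16 (edgeR adjusted p = 0.00174), and adjusted p ranged from 0.000182 to 0.0947 over 21 alternatives, the latter with contig factors. The log2 ratio of the internal over the upstream start peak was -4.06 ± 0.0685 in vehicle and -3.50 ± 0.256 in sorbitol libraries (SD, n = 4), a difference of 0.56. With the loess offset, which varies with the level of a peak, the log2 fold changes of these peaks were closer together, 0.67 and 0.31, against 0.66 and 0.10. The exact two-sided permutation test gave p = 0.0286 (0.0286 adjusted over the 2 ratios), the smallest possible. This pair was chosen after its values were seen, with the groups of the internal peak already apart. The p-value is therefore no support beyond that peak's own values. Every sorbitol ratio (-3.83 to -3.20) lay above every vehicle ratio (-4.15 to -4.00).

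Further inside KLF7, the peak at chr2 207121590 to 207122263 held 5.31, 5.72, 5.57 and 5.47 in vehicle and 7.58, 7.39, 7.03 and 8.80 in sorbitol libraries. The groups did not overlap, and the log2 fold change was 0.48 (edgeR adjusted p = 0.00826), but with contig factors it was 0.48 (0.226), without sorbitol 4 it was 0.40 (0.0523) and without the pair of vehicle 4 and sorbitol 4 it was 0.39 (0.0685). The only KLF peak changed at least 2-fold was the weakest of the locus, chr2 207115951 to 207116161. It held 0.340, 0.361, 1.75 and 0.616 in vehicle and 2.33, 1.63, 1.17 and 1.44 in sorbitol libraries, from 5 to 34 counts a library. Vehicle 3 lay within the sorbitol range. Its log2 fold change was 1.02 with standard error 0.37 (edgeR adjusted p = 0.0291). The call was lost without vehicle 1, 2 or 4 or sorbitol 1 or 2 (edgeR adjusted p up to 0.143), and without vehicle 3 the value was 1.89 (0.000401). It was also lost with the loess offset (0.82, 0.0979), with contig factors (0.97, 0.0538) and in the DESeq2 Wald test (1.04, 0.0679).

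**Figure D3:**
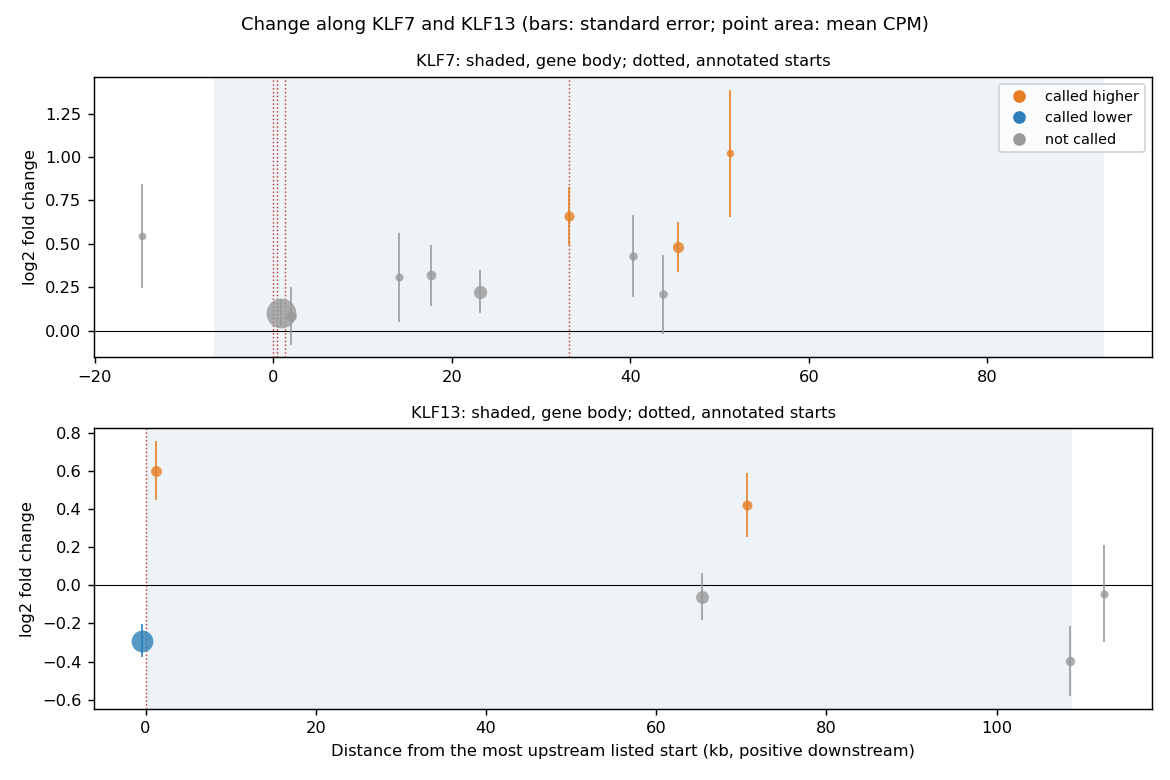
Log2 fold change with standard error (vertical axis) of each peak of KLF7 (top) and KLF13 (bottom) by distance in kb from the most upstream start in the promoter table (horizontal axis), with point area by mean CPM. At KLF7 the large upstream peak lies near 0.10 and the internal start peak at 0.66, and at KLF13 the start peak at -0.29 lies beside a peak at 0.60.

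KLF5, a driver of epithelial proliferation, had the strongest start peak of the family members here. The peak, chr13 73058522 to 73059872, covers the second of 2 annotated starts, and no peak was listed at the first. It held 127.0, 128.8, 140.2 and 132.3 CPM in vehicle and 110.1, 129.0, 123.3 and 130.8 in sorbitol libraries, and the groups overlapped. The log2 fold change was -0.10 with standard error 0.07 (edgeR adjusted p = 0.336). Both called KLF5 peaks were weak flank peaks and were higher. The peak at chr13 73039482 to 73039692, 15284 bp before the gene, held 1.70, 0.542, 0.980 and 2.46 in vehicle and 2.50, 2.41, 3.77 and 2.34 in sorbitol libraries, so vehicle 4 lay within the sorbitol range. Its log2 fold change was 0.98 with standard error 0.29 (edgeR adjusted p = 0.00771, and 0.0618 without vehicle 2 and 0.0649 without sorbitol 3). The peak at chr13 73082986 to 73083236, 5448 bp after the gene, went from 1.52 ± 0.553 to 2.68 ± 0.384 (SD, n = 4) with no overlap, a log2 fold change of 0.81 (edgeR adjusted p = 0.0140). That call was lost without vehicle 1, vehicle 3 or sorbitol 1 (edgeR adjusted p up to 0.0720) and with contig factors (0.0596). The other 5 KLF5 peaks had values from -0.03 to 0.55 and were not called.

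At KLF4, a reprogramming factor and regulator of epithelial differentiation, the start peak was not called. It lies at chr9 107488845 to 107490613 and held 38.6, 35.9, 37.8 and 33.6 CPM in vehicle and 35.2, 39.9, 35.9 and 43.6 in sorbitol libraries. The groups overlapped, with a log2 fold change of 0.09 and standard error 0.09 (edgeR adjusted p = 0.487). Values with the loess offset (0.26, edgeR adjusted p = 0.00612) and with gene-start factors (0.28, 0.00278) were called, and adjusted p ranged from 0.00278 to 0.944 over 21 alternatives. A weak peak 331 bp after the gene, chr9 107484154 to 107484521, was called lower. It went from 4.64 ± 0.870 to 3.36 ± 0.458 (SD, n = 4), a log2 fold change of -0.47 (edgeR adjusted p = 0.0476), although vehicle 4 (3.63) lay within the sorbitol range of 2.85 to 3.83. The call was lost without vehicle 1, 2 or 3 or sorbitol 2 or 3 (edgeR adjusted p up to 0.186), and over 21 alternatives adjusted p ranged from 0.0160 to 0.263. A peak 3425 bp after the gene had a value of 0.70 and was not called (edgeR adjusted p = 0.0730), and one 14413 bp before it, at the start of LOC105376206, had -0.24.

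None of the 5 peaks at KLF6, an injury-response gene, was called. The start peak, chr10 3784647 to 3786086, held 43.7, 40.8, 40.7 and 39.1 CPM in vehicle and 38.9, 44.1, 45.4 and 44.3 in sorbitol libraries. The groups overlapped, and the log2 fold change was 0.07 with standard error 0.08 (edgeR adjusted p = 0.557). As at KLF4, the loess offset (0.25, edgeR adjusted p = 0.00570) and gene-start factors (0.26, 0.00324) gave a call, with adjusted p from 0.00324 to 0.926 over 21 alternatives. Another strong peak inside the gene, at chr10 3782869 to 3784300, had a value of -0.07 with standard error 0.09.

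At KLF3, none of 5 peaks was called. The strongest, chr4 38663166 to 38665338, covers an end of KLF3 and part of KLF3-AS1. It held 35.5, 37.8, 45.0 and 41.1 CPM in vehicle and 35.1, 42.3, 36.2 and 43.0 in sorbitol libraries, nearly the same range. Its log2 fold change was -0.03 with standard error 0.09 (edgeR adjusted p = 0.863). The other 4 peaks inside the gene had values from -0.15 to 0.08.

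KLF9, a gene induced by glucocorticoids and thyroid hormone, had 2 of the 4 strongest peaks of the 66 and a call at a weak one. No peak overlapped its annotated start. The nearest peak, chr9 70412562 to 70414509, ended 148 bp short of it, inside the gene, at the starts of KLF9-DT and LOC124900273, and its value was 0.02 with standard error 0.08. It was picked for its position, after its values were seen. The strongest peak of the locus, chr9 70418215 to 70421104, lies 3558 bp before the gene. It held 115.7, 120.8, 112.0 and 113.6 CPM in vehicle and 117.6, 120.3, 119.5 and 134.7 in sorbitol libraries. Vehicle 2 lay within the sorbitol range, and the log2 fold change was 0.09 with standard error 0.07 (edgeR adjusted p = 0.374). It became 0.17 (edgeR adjusted p = 0.0351) with library totals alone, 0.17 (0.0328) over peaks averaging 50 counts or more, 0.32 (3.12e-05) with the loess offset and 0.28 (0.000158) with gene-start factors. Over 21 alternatives its adjusted p ranged from 3.12e-05 to 0.873.

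The called KLF9 peak lies inside the gene, and inside LOC124900273, at chr9 70407419 to 70407685. It held 2.86, 2.83, 1.86 and 2.33 CPM in vehicle and 4.33, 4.51, 4.18 and 4.05 in sorbitol libraries. Every sorbitol library was above every vehicle library. The log2 fold change was 0.80 with standard error 0.20 (edgeR adjusted p = 0.00181), from 34 to 59 counts a library. Among the 14 called KLF peaks it was the only one to pass the threshold under every alternative that tested it, with adjusted p-values up to 0.0423. The other 8 KLF9 peaks had values from -0.19 to 0.06 and were not called.

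KLF10 and KLF11, both first known as genes induced early by TGF-beta, showed small differences. At KLF10 the peak over a gene end, chr8 102655446 to 102656604, held 46.6, 47.6, 45.3 and 39.9 CPM in vehicle and 37.3, 47.3, 43.7 and 47.3 in sorbitol libraries. Its log2 fold change was -0.03 with standard error 0.09 (edgeR adjusted p = 0.830), and that of the other strong peak, inside the gene at chr8 102653690 to 102654809, was -0.06 (0.654). A called peak lay outside the gene at chr8 102633181 to 102633918. It went from 9.66, 10.4, 10.7 and 9.31 in vehicle to 7.33, 7.54, 8.70 and 7.01 in sorbitol libraries, with no overlap and a log2 fold change of -0.39 (edgeR adjusted p = 0.0165). The call was lost without vehicle 3 (edgeR adjusted p = 0.0570), with library totals alone (-0.31, 0.0564), with gene-start factors (-0.20, 0.236) and with contig factors (-0.43, 0.283). The lowest adjusted p over 21 alternatives was 0.0108.

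At KLF11 the start peak, chr2 10043246 to 10044490, covers both annotated starts. It held 20.6, 27.6, 22.5 and 26.7 CPM in vehicle and 25.2, 28.9, 27.8 and 26.3 in sorbitol libraries, and the groups overlapped. The log2 fold change was 0.15 with standard error 0.09 (edgeR adjusted p = 0.239), and became 0.23 (0.0458) with library totals alone, 0.23 (0.0485) over peaks averaging 50 counts or more, 0.30 (0.00923) with the loess offset and 0.34 (0.00306) with gene-start factors. Over 21 alternatives its adjusted p ranged from 0.00306 to 0.782. A peak 396 bp before the gene, within KLF11-DT at chr2 10042334 to 10043154, was called higher. It went from 10.9 ± 0.933 to 13.3 ± 0.875 (SD, n = 4) with no overlap, a log2 fold change of 0.29 (edgeR adjusted p = 0.0451). A peak 17675 bp after KLF11, inside the neighbouring gene CYS1 at chr2 10072511 to 10073035, was called lower, from 14.4 ± 1.17 to 11.5 ± 1.24 (SD, n = 4), a log2 fold change of -0.32 (edgeR adjusted p = 0.0248). The first call was lost without vehicle 1 or 3 or sorbitol 1, 3 or 4 (edgeR adjusted p up to 0.125), and the second without vehicle 2 or 3 or sorbitol 1 (up to 0.0945). Over 21 alternatives adjusted p ranged from 0.000810 to 0.520 for the first and from 0.0147 to 0.398 for the second.

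**Figure D4:**
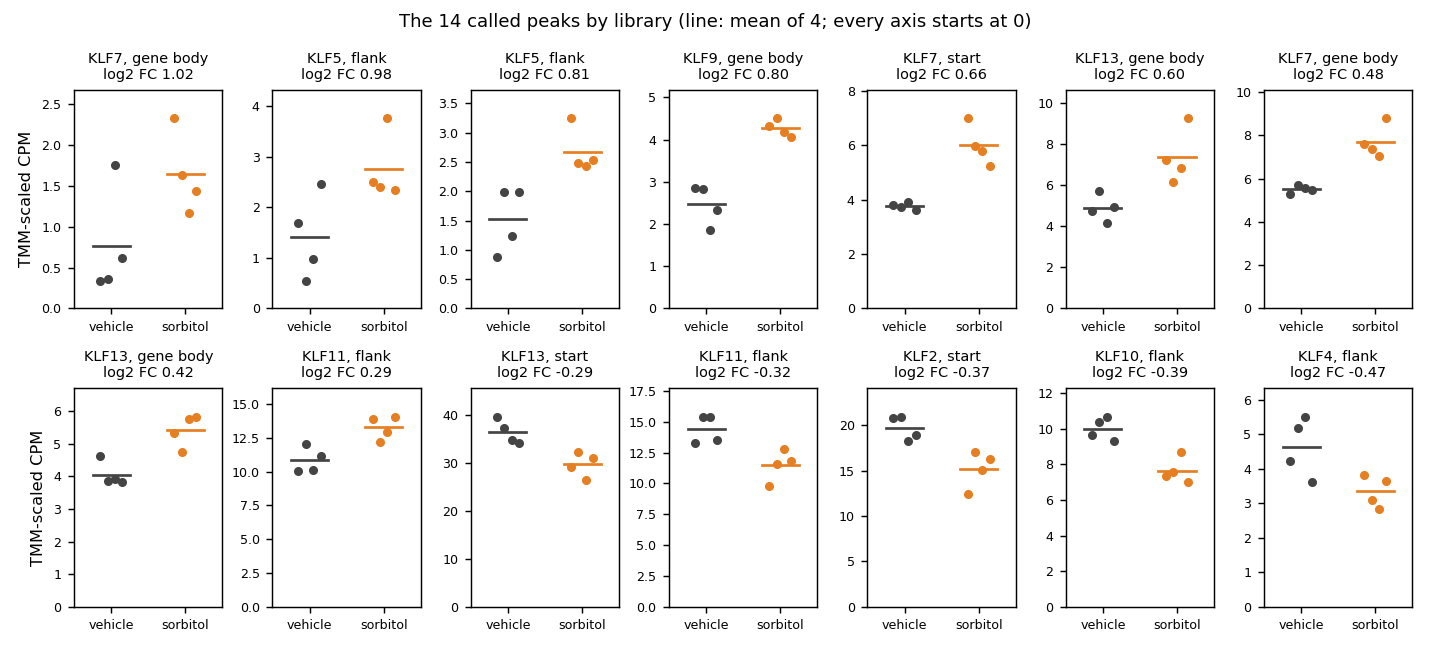
TMM-scaled CPM (vertical axes, each from 0) of the 14 called peaks in 4 vehicle and 4 sorbitol libraries, ordered by log2 fold change; lines are means. Groups overlap at the KLF7 peak at 1.02, the KLF5 peak at 0.98 and the KLF4 peak at -0.47, and are apart at the other 11.

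Called peaks are described here by position and strength. The 9 higher peaks all had means under 20 CPM, as did 4 of the 5 lower peaks and 54 of the 66 KLF peaks. Of the 9 higher peaks, 5 lay inside a gene away from its starts, 3 in a flank and 1 at a start. The 5 lower peaks were 2 start peaks and 3 flank peaks, and no gene body peak was lower. With so few called peaks, a difference in position was not tested. Of 54 KLF peaks under 20 CPM, 13 were called, 9 higher and 4 lower, against 26.7%, 16.8% and 9.91% of all tested peaks of that strength. Of the 31 gene body and 27 flank peaks, 5 and 6 were called. Of these peaks 3 overlap a start of another gene, and 11 of the other 55 (20%) were called, 8 higher and 3 lower, against 27.1% of all tested peaks without a gene start (16.9% higher and 10.1% lower). Groups did not overlap at 14 of the 66 peaks, 9 higher and 5 lower, 11 of which were called. Over all tested peaks they did not overlap at 26.3%, 13.7% higher and 12.6% lower. Refits that left out 1 library at a time kept 5 of the 14 calls in all 8 refits, namely KLF2 start, KLF13 start, the KLF13 peak just inside the gene, KLF7 internal start and KLF9. The call at the KLF13 peak far inside the gene was the one lost most often, without vehicle 2, 3 or 4 or sorbitol 1, 3 or 4.

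Summed over all peaks of a locus, accessibility after sorbitol ranged from a log2 ratio of -0.36 at KLF2 to 0.20 at KLF7. The KLF2 sum was 23.4 ± 1.53 CPM in vehicle and 18.3 ± 2.08 in sorbitol libraries (SD, n = 4), and the KLF7 sum was 99.3 ± 5.55 and 114.3 ± 6.52. Vehicle sums at KLF2 (21.7 to 24.9) lay above all sorbitol sums (16.1 to 20.7), and vehicle sums at KLF7 (92.9 to 104.3) lay below all sorbitol sums (108.8 to 123.7). The other 8 loci had log2 ratios from -0.11 to 0.09, and their groups overlapped. The levels of these sums are dominated by the strongest peaks, but the change need not be. At KLF7 the strongest peak went only from 62.9 to 67.6 CPM. The sums were computed with TMM scaling only, for these 10 loci only, and are a description. No share over other loci was computed. At single peaks, groups did not overlap at 26.3% of all tested peaks.

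Other genes of the family were followed in the same windows. The remaining KLF and SP genes, 17 in number, held 178 peaks, of which 45 were higher (25.3%) and 27 lower (15.2%), against 16% and 13.1% of all tested peaks. Their median log2 fold change was 0.13. Of these, 90 peaks belonged to the long gene KLF12, a repressor that binds CtBP, where 39 were higher (43.3%) and 1 was lower (1.11%) and the median was 0.43. The KLF12 peak with the smallest p, chr13 74132191 to 74132469, rose from 7.73 ± 1.26 CPM in vehicle to 16.1 ± 1.55 in sorbitol libraries (SD, n = 4), by 1.06 on the log2 scale (edgeR adjusted p = 2.03e-09). Over the 88 peaks of the other 16 genes, 6 were higher (6.82%) and 26 lower (29.5%), and the median was -0.18. The lower peak with the smallest p was at KLF16, a SIN3A-binding repressor, where 5 of 7 peaks were lower. The peak at chr19 1875596 to 1876707 fell from 21.6 ± 0.706 to 11.7 ± 1.04 (SD, n = 4), a log2 fold change of -0.88 (edgeR adjusted p = 2.89e-09).

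Genes for partners and regulators of KLF proteins, 14 in number, held 149 peaks, with 30 higher (20.1%), 21 lower (14.1%) and a median of -0.04, against 16% and 13.1% of all tested peaks. Genes are named here by their peaks with the smallest p, and whether they differ from other genes was not tested. At MEF2C, a transcription factor known to act upstream of KLF2 and KLF4, 13 of 24 peaks were higher and none lower, led by a peak at chr5 88740757 to 88741307 that rose from 3.34 ± 0.671 CPM in vehicle to 8.15 ± 2.02 in sorbitol libraries (SD, n = 4), by 1.29 on the log2 scale (edgeR adjusted p = 6.45e-08). At SIN3A, which encodes the corepressor that KLF9, KLF10, KLF11 and KLF13 bind, 4 of 6 peaks were lower and none higher. The lower peak with the smallest p, chr15 75367700 to 75368915, lies at the start of the neighbouring gene MAN2C1 and fell from 70.8 ± 3.26 to 46.3 ± 2.40 (SD, n = 4), a log2 fold change of -0.61 (edgeR adjusted p = 2.88e-08). With contig factors the calls fell to 22 higher and 6 lower in the remaining family and to 15 and 0 among the partners, and with gene-start factors they were 70 and 18, and 47 and 11.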

How the data were processed

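Per the labels' protocols, each Omni-ATAC library came from 50000 cells and was read in paired-end mode at 75 bp. The authors deposited raw counts per shared peak in 8 libraries, with the treatment and replicate number of each library in the column names. The submitters' processing notes name hg38 and GRCh38 and list, without roles, Trim Galore 0.6.10, FastQC 0.12.1, MultiQC 1.28, BWA 0.7.17, SAMtools 1.22, Picard, MACS2 2.2.9.1, bedtools, deepTools 3.5.4 and DESeq2. How peaks were merged, and whether reads or fragments were counted, is not given in the sources used here. Peak positions are printed as in the table, whose counting from 0 or 1 is not stated. Gene bodies and starts came from RefSeq tables of GRCh38.p14, which give no exons. KLF3 and KLF10 had no start in the promoter table, so the peak nearest to either gene end, within 1 kb, took its place.

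All peaks were fitted together in R 4.3.3 with edgeR 4.0.16: filterByExpr (minimum count 10, minimum total 15; 49 peaks removed), TMM library factors, the quasi-likelihood test of treatment, and Benjamini-Hochberg adjustment over 129487 peaks with a threshold of 0.05. Levels are CPM over the TMM-scaled library size. Standard errors are the fold change divided by the square root of its F statistic. Alternatives were DESeq2 1.42.0 (size factors, and its Wald test), library totals, a loess offset, no filter, only peaks averaging 50 counts or more, a threshold of 0.01, blocks, summed libraries, a 5 kb window and leaving out libraries. Gene-start factors, contig factors and the left-out pair were added after seeing the data.

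The 10 genes, the lists and the naming rule were chosen with earlier results of these data known. Named peaks were, per gene, those over a start (or gene end), the strongest, up to 3 per direction called and changed at least 2-fold, or else the smallest p called in that direction. Called peaks outside this rule (1 each at KLF5, KLF7 and KLF13) and uncalled peaks given outside it were picked after their values were seen. On simulated counts for 129487 peaks of this comparison, edgeR recovered 65 of 100 peaks changed 2-fold and 99 of 100 changed by a log2 of 2, with 10 false calls, and DESeq2 56 and 98 with 6. The simulation changed only 100 peaks of each size, up and down alike, against 37717 called in the data. Its recovery and false calls may therefore not hold for these data. Libraries of a group differed by more than sampling noise (chi-square per degree of freedom 1.86 to 3.05 over 12 pairs). Same-numbered libraries did not deviate together. For the marker check, 1 listed gene is not reported here. Counting error covers neither PCR duplicates nor culture differences.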

Additional observations from a re-analysis of the deposited data

Results flagged for a closer look

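Among 46 groups of 4 libraries at the described peaks, 5 had a library far from the other 3, where chance alone gives about 1 in 20, or 2.3. At the KLF5 peak 15284 bp before the gene, sorbitol 3 had 3.77 CPM against 2.34 to 2.50 in the other sorbitol libraries. At the KLF5 peak 5448 bp after the gene, sorbitol 1 had 3.25 against 2.43 to 2.54. At the upstream KLF7 start peak, sorbitol 4 had 74.1 against 64.5 to 66.1. At the strongest KLF9 peak, sorbitol 4 again had the highest level, 134.7 against 117.6 to 120.3. At the KLF13 peak far inside the gene, vehicle 1 had 4.63 against 3.83 to 3.92. The part of these libraries in the results was tested only by leaving each of them out.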

How the results depend on the processing

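The counts of KLF peaks called higher, called lower and changed at least 2-fold were 9, 5 and 1. They were 17, 2 and 2 with library totals alone, 14, 3 and 0 with the loess offset, 22, 0 and 3 with gene-start factors and 2, 0 and 0 with contig factors. Over all 129487 peaks the higher and lower calls, 20701 and 17016, moved to 26162 and 12650, 19386 and 15668, 35147 and 8005, and 9635 and 4092 in the same order. At the adjusted threshold of 0.01 the KLF counts were 5, 2 and 0, which the threshold itself sets. There 10.6% of KLF peaks and 18.0% of all peaks were called. Over the 42 KLF peaks averaging 50 counts or more, 10 were higher, 3 lower and 0 changed at least 2-fold. That is 31.0% called, against 36.7% of all 58274 peaks that passed this filter (10312 higher and 11094 lower). The library factors changed there too (the KLF2 start moved from -0.37 to -0.29). With a window of 5 kb, which holds 48 peaks, 7 were higher and 3 lower. The count changed at least 2-fold was 0 with the DESeq2 Wald test and with summed libraries, and 2 with the replicate block. Apart from the threshold and the window, no cause was tested. Fits without 1 library gave 5 to 8 higher, 2 to 5 lower and 0 to 2 changed at least 2-fold. They called 12.1% to 19.7% of KLF peaks and 23.6% to 29.8% of all peaks. Libraries with the same replicate number did not deviate together (correlations of deviations 0.000128, 0.00656, -0.0307 and -0.132). With the replicate block 11 KLF peaks (16.7%) were called, all among the 14, against 26.6% of all peaks. The KLF4 flank peak, the higher KLF11 peak and the KLF13 peak far inside the gene were not called with it. Of 9 described peaks that were not called, 5 were called under at least 1 alternative, and 5 changed sign under at least 1. The ratio differences ranged from -1.002 to -0.79 (KLF13) and from 0.46 to 0.67 (KLF7) when a library was left out, where 3 against 4 libraries allow no exact p below 0.0571. Among the 17 other KLF and SP genes, 45 peaks were higher, 27 lower and 9 changed at least 2-fold. These were 70, 18 and 17 with gene-start factors and 22, 6 and 9 with contig factors. Only 94 of the 178 peaks averaged 50 counts or more, of which 27 were higher, 20 lower and 2 changed at least 2-fold. That is 50% called, against 40.4% of the 178, while the share over all peaks moved from 29.1% to 36.7%. Without the pair of vehicle 4 and sorbitol 4, 15 changed at least 2-fold. For the 14 partner genes the counts were 30, 21 and 8. They were 47, 11 and 15 with gene-start factors and 15, 0 and 9 with contig factors. Only 86 of the 149 partner peaks averaged 50 counts or more, of which 15 were higher, 17 lower and 2 changed at least 2-fold. That is 37.2% called, against 34.2% of the 149. At the threshold of 0.01, 13 partner peaks were lower, and with the loess offset 5 changed at least 2-fold. Without 1 library the family gave 38 to 48 higher, 23 to 27 lower and 9 to 14 changed at least 2-fold, and the partners 25 to 29, 18 to 23 and 7 to 11. Weak peaks, such as the KLF7 peak with 5 to 34 counts, are limited by counting error.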
